A study of Mus musculus with 6 samples.

Results

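SR proteins and heterogeneous nuclear ribonucleoproteins (hnRNPs) are the main families of RNA-binding proteins that decide which exons enter a messenger RNA. The genes described here were chosen by symbol: every mouse gene whose symbol starts with Srsf or Hnrnp, the SR-like genes Tra2a and Tra2b, the kinases Clk1 to Clk4, Srpk1 and Srpk2, and the coactivators Son, Srrm1 and Srrm2, with pseudogene symbols left out. This gave 42 genes among the 15452 in the deposited table, and all 42 passed the filter on low counts and were tested with the other genes (15361 in all). They were measured by messenger RNA sequencing of Th17 cells from mice, a class of CD4+ helper cell named for its cytokine IL-17. The knockout group (3 libraries) came from mice with PDHfl/fl alleles and CD4 Cre and is labelled PDH knockout, although the sample titles write PHD; PDH, pyruvate dehydrogenase, is the mitochondrial complex that makes acetyl-CoA from pyruvate. The WT group (3 libraries) came from mice that carry the same floxed alleles without Cre, so any effect of Cre itself cannot be told apart from that of the deletion. CD4 Cre acts in the T cell lineage from its development in the thymus onwards. In both groups naive CD4+ T cells were bead-sorted from spleen and lymph nodes and stimulated for 3 days through plate-bound anti-CD3 with anti-CD28, IL-6, TGFβ and an antibody against IFNγ. Whether each replicate is a separate animal is not stated, and the p-values therefore reflect only how much these samples vary.

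SR proteins carry an RNA-recognition motif and a tail rich in arginine and serine (the RS domain), bind exonic enhancers and recruit the spliceosome to nearby splice sites. Many hnRNPs bind silencer elements and act against exon inclusion, and several also control the stability, export or translation of messenger RNA. Cycles of phosphorylation and dephosphorylation of the RS domain control SR proteins: SRPK kinases act mainly in the cytoplasm and promote nuclear import, and CLK kinases act in the nucleus and release SR proteins from nuclear speckles. Many genes of these families limit their own product by splicing in a poison exon that sends the transcript to nonsense-mediated decay, and activated T cells are known to change splicing of the phosphatase CD45 through HNRNPLL.

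Library totals were 33802154 to 39398842 counts in knockout and 37556787 to 40407124 counts in WT. As a check of the labels, Pdha1, the E1 alpha subunit of PDH, was at 198, 193 and 186 CPM in knockout and at 256, 236 and 251 CPM in WT (CPM, counts per 1000000 after TMM scaling), but the labels do not name the floxed subunit. All 6 listed T cell markers were in the table and summed to 1790 to 1920 CPM in knockout and 2180 to 2270 CPM in WT. All 5 Th17 markers were there too, summing to 491 to 645 CPM in knockout and 830 to 1100 CPM in WT; in both lists the groups did not overlap, and the part of this in the results was not tested. All 7 B cell markers were in the table too, summing to 65.5 to 219 CPM in knockout and 54.2 to 126 CPM in WT, with the higher sums in knockout replicates 2 and 3 and WT replicate 2. Of 6 myeloid markers 5 were in the table, at 5.18 to 9.29 CPM in knockout and 8.68 to 22.1 CPM in WT, and of 4 CD8 T and NK markers 2 were, at 5.58 to 14.9 CPM in knockout and 8.68 to 11.3 CPM in WT. Knockout replicate 2 stood apart in that 4.948% of its counts fell on 1 unnamed entry, against 0.07959 to 0.2153% in the other 5 libraries. In such bulk samples, fewer cells of a type and less RNA per cell cannot be told apart.

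In knockout 12 of the 42 genes rose and 6 fell, which left 24 with no call (edgeR quasi-likelihood F test, adjusted p under 0.05 over all tested genes). That is 42.9% called, where 47.6% of all tested genes were called, so the share of changed genes among the splicing factors was near the background. By direction, 28.6% of the 42 rose and 14.3% fell, against 23.1% and 24.5% of all tested genes. Most of the 42 are abundant: 38 had a mean of at least 50 CPM, and among all 4450 tested genes at that level 54.7% were called, 18.4% higher and 36.3% lower. The median log2 fold change of knockout over WT was 0.08 for the 42 genes, 0.01 for all tested genes and -0.09 for those with at least 50 CPM. The median of the 42 depended on the libraries and the scaling. It was 0.14 without WT replicate 2 and 0.14 without knockout replicate 3. It was 0.05 without WT replicate 1, 0.06 without knockout replicate 1 or 2 and 0.07 without WT replicate 3. Upper-quartile scaling gave 0.16, against 0.09 for all tested genes, and library totals gave 0.12, against 0.05. A minimum of 50 counts gave 0.13, against 0.002 for all tested genes. Leaving out the 3 libraries with the higher B cell marker sums kept only knockout replicate 1 and WT replicates 1 and 3. The median of the 42 was then 0.21, against 0.004 for all tested genes. Among the 42, the kept knockout replicate 1 held the highest knockout value in 64.3%. The dropped WT replicate 2 held the highest WT value in 61.9%. Of the 18 calls 66.67% were higher, and 80% of 20 calls under upper-quartile scaling; over all genes the shares were 48.53% and 59.95%. Changes were small: 0 of the 42 changed 2-fold, and only Srsf6 and Hnrnpd changed more than 1.5-fold. Knockout and WT libraries did not overlap in 17 of the 42, 40.5%, against 58.2% of all tested genes.

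**Figure D1:**
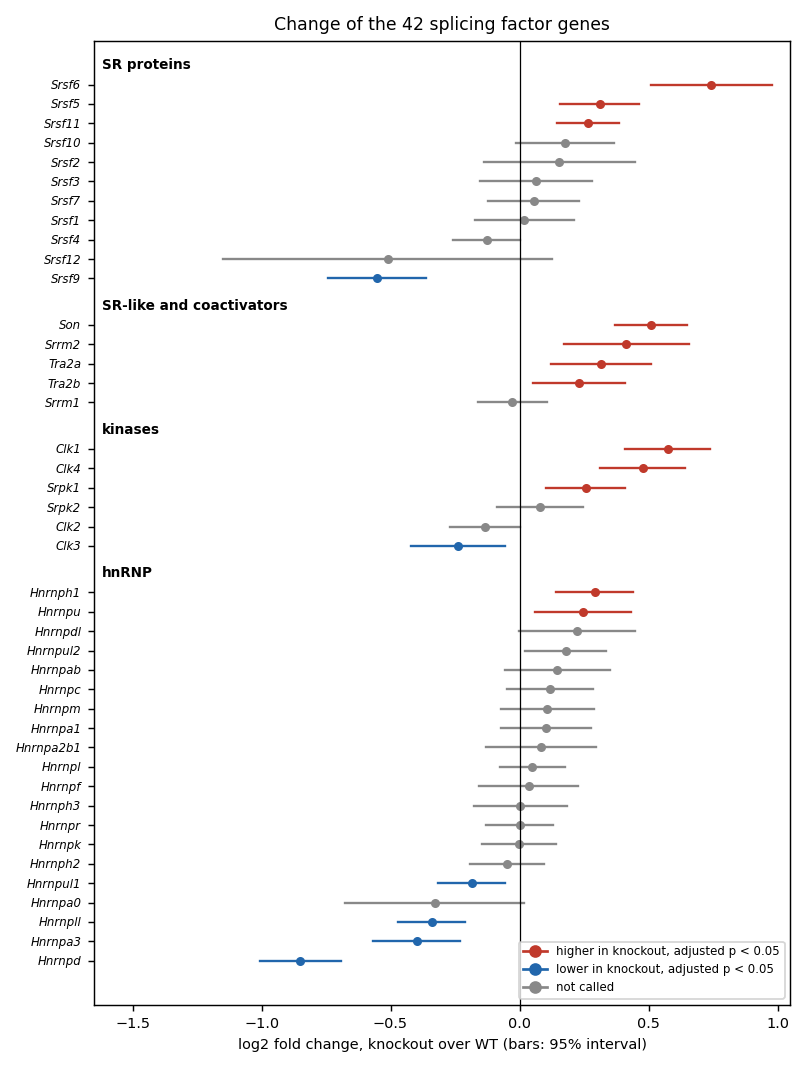
The log2 fold change of knockout over WT (x axis) with its 95% interval is drawn for each of the 42 genes, grouped by role, red where higher and blue where lower in knockout at adjusted p under 0.05. The estimates ran from -0.85 for Hnrnpd to 0.74 for Srsf6, and most hnRNP genes lay near 0.

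Of 11 Srsf genes 3 rose (27.3%) and 1 fell (9.09%), against 23.1% and 24.5% of all tested genes. The other 7 had no call, and the median log2 fold change was 0.06. Srsf6 (ENSMUSG00000016921.15), an SR protein with a pair of RNA-recognition motifs, had the largest increase of the 42. Its 3 knockout libraries held 409, 393 and 355 CPM, against 218, 269 and 204 CPM in WT. Every knockout value was above every WT value, and WT replicate 2 was the WT library nearest to the knockout range. The log2 fold change was 0.74 ± 0.10 (SE, adjusted p = 0.000526), a fold of 1.67. Srsf5 (ENSMUSG00000021134.18), a close relative of Srsf6, was at 325, 334 and 303 CPM in knockout and 239, 271 and 264 CPM in WT, a log2 fold change of 0.31 ± 0.07 (adjusted p = 0.00463). Srsf11 (ENSMUSG00000055436.19), an SR-related protein that contacts the U2AF splice-site factor, was at 245, 233 and 230 CPM in knockout and 196, 194 and 199 CPM in WT (0.26 ± 0.05, adjusted p = 0.00316). In neither gene did the groups overlap.

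Srsf9 (ENSMUSG00000029538.15), a small SR protein related to Srsf1, was the only Srsf gene that fell. It was at 50.4, 52.0 and 44.6 CPM in knockout, against 66.0, 79.1 and 70.3 CPM in WT, and the groups were apart. Its log2 fold change was -0.55 ± 0.08 (adjusted p = 0.000698). The most abundant Srsf genes were not called. Srsf1 (ENSMUSG00000018379.18), the founding SR protein, was at 655, 626 and 565 CPM in knockout and 563, 674 and 585 CPM in WT, and its 95% interval of the log2 fold change ran from -0.17 to 0.21. Srsf3 (ENSMUSG00000071172.14), the smallest classical SR protein, was at 542, 521 and 453 CPM in knockout and 460, 550 and 442 CPM in WT, with an interval from -0.15 to 0.28. In both genes all knockout values lay within the WT range. Srsf2 (ENSMUSG00000034120.19), whose protein marks nuclear speckles, was at 415, 394 and 371 CPM in knockout and at 336, 428 and 296 CPM in WT. WT replicate 2 alone exceeded the knockout values there: with all libraries Srsf2 was not called (0.15 ± 0.13, adjusted p = 0.343), and without WT replicate 2 it was called higher (0.32, adjusted p = 0.0105).

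The remaining Srsf genes were Srsf10, Srsf7, Srsf4 and Srsf12. Srsf10, which represses splicing when dephosphorylated, was at 265 ± 23.2 CPM in knockout and 235 ± 21.1 CPM in WT (SD, n = 3 each; 0.18 ± 0.08, adjusted p = 0.112), and it was called higher without WT replicate 2 (0.25, adjusted p = 0.0280). Srsf7 was at 251 ± 12.4 CPM in knockout and 242 ± 24.3 CPM in WT, and Srsf4 at 122 ± 5.39 CPM in knockout and 133 ± 3.85 CPM in WT (-0.13 ± 0.06, adjusted p = 0.0962). Srsf12 had the lowest counts of the 42 genes, with 49 to 56 counts in the knockout libraries and 50 to 115 counts in the WT libraries. Its interval was wide, from -1.15 to 0.13 on the log2 scale, and it was called lower without WT replicate 2 (-0.74, adjusted p = 0.0341).

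Of the 5 SR-like and coactivator genes 4 rose (80.0%, against 23.1% of all tested genes) and 1 had no call. Their median log2 fold change was 0.32. Son (ENSMUSG00000022961.19) encodes a large RS-rich scaffold of nuclear speckles that is needed for splicing of weak introns. It was at 736, 717 and 717 CPM in knockout and 502, 488 and 535 CPM in WT. The groups were far apart compared with their spread, and the log2 fold change was 0.51 ± 0.06 (adjusted p = 0.000202). Srrm2 (ENSMUSG00000039218.18), a speckle scaffold as well, was at 1281, 1153 and 1346 CPM in knockout and 974, 797 and 1064 CPM in WT (0.41 ± 0.11, adjusted p = 0.0111). Its groups did not overlap either, although the highest WT library came within 88.5 CPM of the lowest knockout library. Srrm1 (ENSMUSG00000028809.17), a coactivator that bridges enhancer-bound SR proteins and the spliceosome, was at 347, 331 and 344 CPM in knockout and 348, 330 and 363 CPM in WT (-0.03 ± 0.06, interval -0.16 to 0.11).

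Tra2a and Tra2b, which bind purine-rich exonic enhancers, both rose. Tra2a (ENSMUSG00000029817.12) was at 179, 181 and 152 CPM in knockout and 125, 150 and 137 CPM in WT (0.32 ± 0.09, adjusted p = 0.0140), with the groups just apart. Tra2b (ENSMUSG00000022858.17) was at 362, 333 and 313 CPM in knockout and 279, 314 and 266 CPM in WT (0.23 ± 0.08, adjusted p = 0.0375), and WT replicate 2 lay above knockout replicate 3. These calls depended on single libraries. Tra2a lost its call without WT replicate 1 (adjusted p = 0.06515) or knockout replicate 2 (adjusted p = 0.0579). Tra2b lost it without knockout replicate 1 or 2 (adjusted p = 0.136 and 0.0845) and without WT replicate 1 or 3 (adjusted p = 0.122 and 0.115).

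Of the 6 kinase genes 3 rose, 1 fell and 2 had no call. That is 66.7% called, against 47.6% of all tested genes, of which 23.1% rose and 24.5% fell. The nuclear kinase genes Clk1 and Clk4 rose together. Clk1 (ENSMUSG00000026034.18) was at 195, 207 and 187 CPM in knockout, against 125, 126 and 145 CPM in WT (0.57 ± 0.07, adjusted p = 0.000268). Clk4 (ENSMUSG00000020385.17), its closest relative, was at 51.0, 51.6 and 51.6 CPM in knockout, against 35.7, 34.6 and 40.5 CPM in WT (0.48 ± 0.07, adjusted p = 0.000676). In both genes WT replicate 3 was the highest WT library and stayed below all knockout libraries. The other CLK genes pointed the other way. Clk3 (ENSMUSG00000032316.9) was at 122, 117 and 127 CPM in knockout and 148, 126 and 157 CPM in WT (-0.24 ± 0.08, adjusted p = 0.0345), with WT replicate 2 inside the knockout range. Its call was lost without any 1 library other than WT replicate 2 (adjusted p from 0.0523 to 0.109), and with upper-quartile scaling (adjusted p = 0.169), library totals (adjusted p = 0.114), limma-voom (adjusted p = 0.0517) or a minimum of 50 counts (adjusted p = 0.0792). Clk2 (ENSMUSG00000068917.13) was at 50.4, 50.9 and 55.1 CPM in knockout and 57.0, 56.4 and 58.1 CPM in WT; the groups were apart, and the change was not called (-0.13 ± 0.06, adjusted p = 0.0954). Of the cytoplasmic kinases, Srpk1 (ENSMUSG00000004865.17) was at 257, 217 and 236 CPM in knockout and 200, 194 and 200 CPM in WT (0.26 ± 0.07, adjusted p = 0.0123). Srpk2 (ENSMUSG00000062604.12) was at 46.1, 47.1 and 46.1 CPM in knockout and 47.3, 39.7 and 44.9 CPM in WT (0.08 ± 0.07, interval -0.09 to 0.25).

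Of the 20 hnRNP genes 2 rose, 4 fell and 14 had no call; 30.0% were called, against 47.6% of all tested genes, and their median log2 fold change was 0.04. Hnrnpd (ENSMUSG00000000568.16), also known as AUF1, binds AU-rich elements in short-lived messages such as those of cytokines and promotes their decay. It was at 150, 158 and 137 CPM in knockout and at 263, 283 and 254 CPM in WT. This was the largest decrease of the 42: all knockout libraries lay far below all WT libraries, with a log2 fold change of -0.85 ± 0.07 (adjusted p = 3.04e-05). Hnrnpa3 (ENSMUSG00000059005.14), of the A/B family, was at 1470, 1385 and 1276 CPM in knockout and 1789, 1741 and 1919 CPM in WT (-0.40 ± 0.08, adjusted p = 0.00208). Hnrnpll (ENSMUSG00000024095.16), the regulator of CD45 exon skipping in T cells, was at 126, 125 and 117 CPM in knockout and 151, 162 and 154 CPM in WT (-0.34 ± 0.06, adjusted p = 0.00121). Neither gene had overlapping groups. Hnrnpul1 (ENSMUSG00000040725.14), an HNRNPU-like protein, fell by less, at 375, 361 and 366 CPM in knockout and 403, 416 and 434 CPM in WT (-0.19 ± 0.06, adjusted p = 0.0249). That small change was no longer called without WT replicate 3 (adjusted p = 0.0709), without knockout replicate 2 or 3 (adjusted p = 0.0791 and 0.0614), with upper-quartile scaling (adjusted p = 0.165), with library totals (adjusted p = 0.115), with a minimum of 50 counts (adjusted p = 0.0588) or without the 3 libraries with the higher B cell marker sums (-0.16, adjusted p = 0.2017).

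Hnrnph1 (ENSMUSG00000007850.17), which binds runs of G in exons and introns, rose to 636, 635 and 582 CPM in knockout, against 482, 531 and 501 CPM in WT (0.29 ± 0.07, adjusted p = 0.00570), with no overlap. Hnrnpu (ENSMUSG00000039630.11), a chromatin-associated RNA scaffold, was at 1168, 1161 and 1034 CPM in knockout and 874, 1040 and 922 CPM in WT (0.25 ± 0.08, adjusted p = 0.0349). The lowest knockout value lay below the highest WT value, and the call was lost without WT replicate 1 or 3 (adjusted p = 0.1504 and 0.0842) and without knockout replicate 1 or 2 (adjusted p = 0.105 and 0.1205). The most abundant hnRNP genes that were not called were Hnrnpa2b1, Hnrnpa1 and Hnrnpf. Hnrnpa1 (ENSMUSG00000046434.17), the best known splicing repressor of the family, was at 1330, 1420 and 1207 CPM in knockout and 1162, 1282 and 1240 CPM in WT, with an interval of the log2 fold change from -0.07 to 0.28. Hnrnpa2b1 (ENSMUSG00000004980.17), its close relative, was at 1763, 1677 and 1430 CPM in knockout and 1393, 1661 and 1546 CPM in WT (interval -0.13 to 0.30). Hnrnpf (ENSMUSG00000042079.14), a G-run binder like Hnrnph1, was at 1142, 1076 and 959 CPM in knockout and 960, 1126 and 1015 CPM in WT (interval -0.16 to 0.23). In these genes the knockout and WT libraries overlapped.

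Of the other 11 uncalled hnRNP genes, Hnrnpk, a C-rich RNA binder, and Hnrnpr had the smallest differences: Hnrnpk was at 1042 ± 41.7 CPM in knockout and 1044 ± 30.7 CPM in WT (interval -0.14 to 0.14), and Hnrnpr at 168 ± 5.90 CPM in knockout and 168 ± 7.04 CPM in WT (interval -0.13 to 0.13; SD, n = 3 each). Changes beyond 1.11-fold were outside these intervals. Hnrnpa0, which binds AU-rich elements, had the largest uncalled difference, at 195 ± 29.2 CPM in knockout and 245 ± 39.2 CPM in WT (-0.33 ± 0.15, adjusted p = 0.105), and it was called by DESeq2 (adjusted p = 0.0257). The difference of Hnrnpa0 was smaller without WT replicate 2 (-0.20, adjusted p = 0.2755) or knockout replicate 3 (-0.21, adjusted p = 0.2139), and was -0.06 (adjusted p = 0.60) without the 3 libraries with the higher B cell marker sums. Hnrnpdl, the closest relative of Hnrnpd, was at 253 ± 25.7 CPM in knockout and 217 ± 26.2 CPM in WT (0.22 ± 0.10, adjusted p = 0.0953), and Hnrnpul2, an HNRNPU-like protein, at 419 ± 23.2 CPM in knockout and 370 ± 24.0 CPM in WT (0.18 ± 0.07, adjusted p = 0.0596). Both lay close to the threshold, and each was called higher under several alternatives, Hnrnpdl for instance without WT replicate 2 (adjusted p = 0.0115) and Hnrnpul2 without WT replicate 3 (adjusted p = 0.0291). The others, Hnrnpab, Hnrnpc, Hnrnpm, Hnrnpl, Hnrnph2 and Hnrnph3, had log2 fold changes from -0.05 to 0.15.

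The calls differed in how far they depended on the processing. Under 18 alternatives in scaling, tool, filter and libraries, 6 genes were called in the same direction every time: Srsf6, Clk1, Clk4 and Son higher, and Srsf9 and Hnrnpd lower. A test against a fold change of 1.2 was 1 of these alternatives, and no other gene of the 42 passed it (4 higher and 2 lower). Over all 15361 tested genes, 3981 passed that test. How many of all genes kept their call under every alternative was not counted. A further 7 genes, Srsf5, Srsf11, Srrm2, Srpk1, Hnrnph1, Hnrnpa3 and Hnrnpll, kept their call in every alternative except the 1.2-fold test. Without knockout replicate 2, 9 of the 42 were higher and 4 lower, against 2900 and 3210 of 15417 tested genes. Leaving out the 3 libraries with the higher B cell marker sums left knockout replicate 1 alone, which was assumed to vary like WT. The median log2 fold change was then 0.21 for the 42 and 0.004 for all tested genes.

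**Figure D2:**
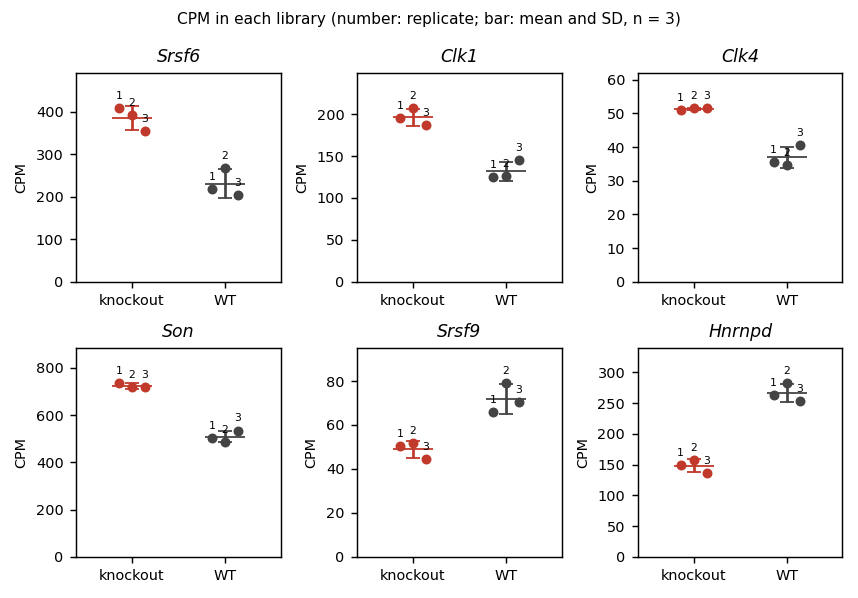
CPM (y axis, from 0) of the 6 genes called under all 18 alternatives is shown in each knockout and WT library, with replicate numbers, mean and SD (n = 3). In Srsf6, Clk1, Clk4 and Son all knockout points lie above all WT points, and in Srsf9 and Hnrnpd all lie below.

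Related genes were also set against each other within each library, by the log2 ratio of their CPM. Such a ratio does not depend on the scaling of the library; gene lengths enter its level and cancel only in the difference between knockout and WT. The 17 pairs were picked after the values were seen, many of them around called genes, and no unselected pairs were counted, so their number without overlap is a description only: 12 of the 17, where 58.2% of all single tested genes had no overlap. Each of these 12 had an exact two-sided permutation p of 0.1, the smallest that 3 against 3 libraries can give, and p = 0.142 adjusted over the 17 pairs, so that no pair passed 0.05. Hnrnpd relative to Hnrnpdl was at -0.77 ± 0.04 in knockout and 0.30 ± 0.10 in WT (log2 ratio, SD, n = 3), and Hnrnpd relative to Hnrnpab was lower in knockout by 1.00. Hnrnpa3 relative to Hnrnpa1 was at 0.06 ± 0.09 in knockout and 0.56 ± 0.11 in WT. Srsf6 relative to Srsf4 was at 1.66 ± 0.15 in knockout and 0.78 ± 0.21 in WT, and Srsf9 relative to Srsf1 at -3.65 ± 0.06 in knockout and -3.08 ± 0.02 in WT. Within the CLK family, Clk1 relative to Clk3 was at 0.69 ± 0.13 in knockout and -0.12 ± 0.12 in WT, whereas Clk1 relative to Clk4 was at 1.93 ± 0.07 in knockout and 1.84 ± 0.03 in WT with overlapping groups (exact permutation p = 0.2, n = 3 each). Hnrnpll relative to Hnrnpl was at -2.03 ± 0.08 in knockout and -1.64 ± 0.03 in WT. The pairs Srsf7 with Srsf3, Tra2a with Tra2b, Clk3 with Clk2 and Srpk1 with Srpk2 overlapped as well.

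**Figure D3:**
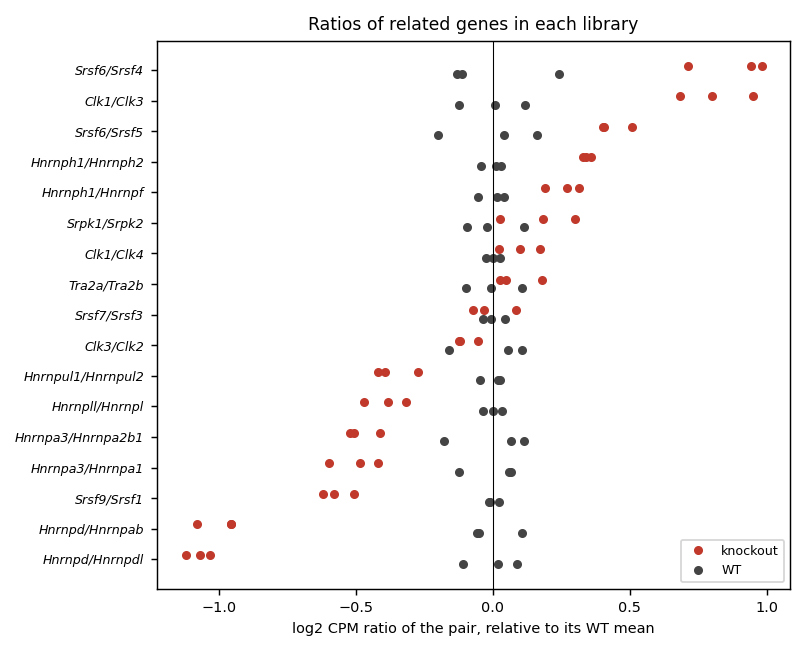
The log2 CPM ratio of each of 17 pairs of related genes, minus its WT mean (x axis), is drawn for each library. Knockout points of Hnrnpd over Hnrnpdl lie near -1.1 and those of Srsf6 over Srsf4 between 0.7 and 1.0, while those of 5 pairs overlap the WT points.

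The families also moved together between replicates of the same group. Knockout replicate 3 held the lowest knockout value in 32 of the 42 genes (76.2%), among them 18 of 20 hnRNP and 9 of 11 Srsf genes, where it was lowest in 32.4% of all tested genes and in 41.8% of those with at least 50 CPM. Knockout replicate 1 held the highest in 27 of the 42 (64.3%, against 34.9% and 43.6%). In WT, replicate 2 held the highest value in 26 of the 42 (61.9%, against 38.3% and 50.9%), among them 16 of 20 hnRNP and 8 of 11 Srsf genes, while for 5 of 6 kinase genes it was the lowest. WT replicate 2 was also the lowest WT library for Son, Srrm2 and Srrm1, the opposite of its place among most Srsf and hnRNP genes. The counts summed over the 42 genes made up 2.058, 1.902 and 1.886% of all counts in knockout and 1.705, 1.827 and 1.815% in WT. Knockout replicate 3, mostly lowest, and WT replicate 2, mostly highest, are both among the libraries with the higher B cell marker sums. Knockout replicate 2 is the other such library, and it was highest in 10 of the 42 and lowest in 7. The part of B cells in this pattern was not tested.

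**Figure D4:**
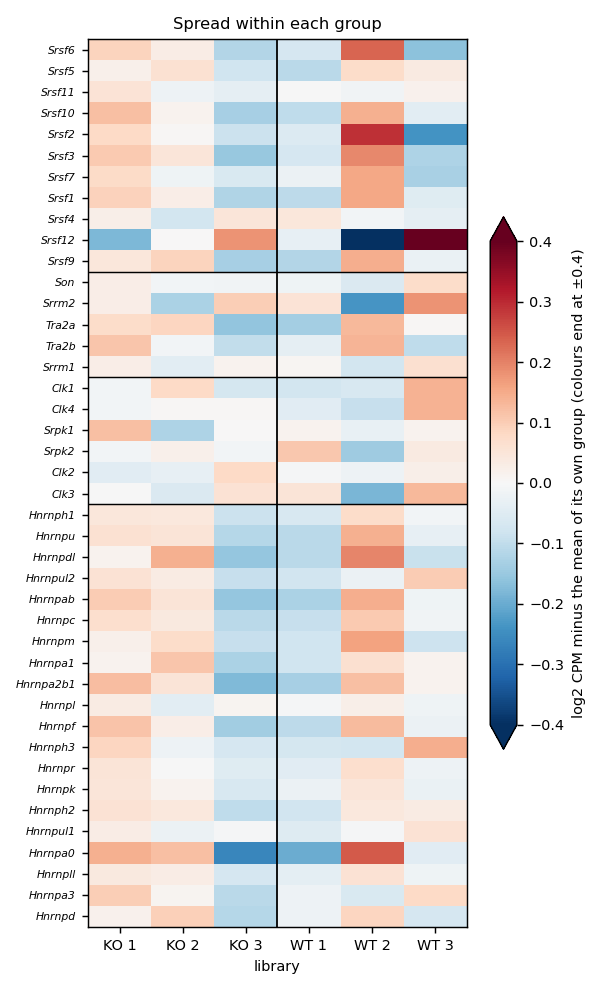
For each of the 42 genes (rows, by role) the colour gives log2 CPM in a library (columns) minus the mean of its own group, from blue (lower) to red (higher). Srsf and hnRNP rows are mostly blue in knockout replicate 3 and red in WT replicate 2, and kinase rows are mostly blue in WT replicate 2.

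Many of the 42 genes have annotated transcripts that do not make the full protein, a feature that the choice by symbol did not use. In the GENCODE M21 annotation 30 of the 42 (71.4%) have a transcript annotated for nonsense-mediated decay, against 28.9% of 12540 tested protein-coding genes. A transcript with a retained intron is annotated for 33 of the 42 (78.6%, against 58.3%), and 7, among them Hnrnph1 and Hnrnpa0, have neither. Clk1, for example, has 1 protein-coding, 2 nonsense-mediated decay and 7 retained intron transcripts, and Clk4 has 4, 3 and 7. Counts per gene add all of these, so a change in Clk1 or Srsf6 does not say which form changed. Exons of 19 of the 42 overlap exons of another annotated gene, most of them on the opposite strand. The library kit was stranded, but the strand setting of the quantification is not given in the sources used here. For the called genes, the partners that were themselves tested were Donson at 28.4 ± 0.975 CPM in knockout and 42.9 ± 3.56 CPM in WT beside Son, Elob at 88.6 ± 0.838 CPM in knockout and 119 ± 14.4 CPM in WT beside Srrm2, and Cox20 at 5.65 ± 0.455 CPM in knockout and 9.94 ± 0.828 CPM in WT beside Hnrnpu. Each of these partners fell in knockout while its overlapping splicing gene rose. The antisense gene Gm17092 beside Hnrnpd was at 1.72 ± 0.409 CPM in knockout and 0.899 ± 0.249 CPM in WT, and Edc3 beside Clk3 at 52.2 ± 2.00 CPM in knockout and 56.3 ± 3.56 CPM in WT. The hnRNP A genes have processed pseudogenes, and reads shared with such copies can be split between entries by the quantification.

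Promoter windows, 250 bases before to 50 after the RefSeq start (GRCm38.p6), were found for 39 of the 42 genes. Those of Clk1, Hnrnpll and Hnrnpul2 were not used. Only the first listed window of each gene was searched, although some genes have more, such as Hnrnph1 with 5 and Hnrnpf with 4. A motif absent there may lie in another window of the gene. Both strands were searched for the E-box CACGTG bound by MYC, the cAMP response element TGACGTCA, the box with the letters CCAAT, the TATA box with the letters TATAAA, the ETS motif CCGGAAG and the GC box GGGCGG. A GC box was present in 30 of the 39 windows (76.9%), against 62.8% of 10482 windows of tested genes and 35.9% of all 27025 windows. CCAAT was in 20 (51.3%, against 39.0% and 37.9%), the ETS motif in 7 (17.9%, against 18.4% and 9.12%), the E-box in 5 (12.8%, against 10.1% and 7.24%), TATAAA in 4 (10.3%, against 7.30% and 14.2%) and the cAMP response element in 2 (5.13%, against 3.20% and 1.88%). Overlapping matches were all counted. The windows with the cAMP response element were those of Clk4 and Tra2a, and they are shown with those of Srsf6 and Hnrnpd, the genes with the largest increase and decrease. Capitals mark all motif matches: GC boxes in Srsf6 (chr2:162931258-162931557, plus strand), the cAMP response element and a GC box in Clk4 (chr11:51262864-51263163, plus strand), a CCAAT box, 2 GC boxes and the cAMP response element in Tra2a (chr6:49264003-49264302, minus strand), and an ETS motif, 3 GC boxes and an E-box in Hnrnpd (chr5:99978889-99979188, minus strand).
Srsf6: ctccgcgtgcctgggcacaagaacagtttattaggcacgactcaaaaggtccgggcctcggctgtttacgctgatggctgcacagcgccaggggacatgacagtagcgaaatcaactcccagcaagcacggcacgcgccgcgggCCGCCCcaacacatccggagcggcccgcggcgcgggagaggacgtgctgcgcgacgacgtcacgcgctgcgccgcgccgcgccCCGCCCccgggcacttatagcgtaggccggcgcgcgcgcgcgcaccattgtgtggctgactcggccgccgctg
Clk4: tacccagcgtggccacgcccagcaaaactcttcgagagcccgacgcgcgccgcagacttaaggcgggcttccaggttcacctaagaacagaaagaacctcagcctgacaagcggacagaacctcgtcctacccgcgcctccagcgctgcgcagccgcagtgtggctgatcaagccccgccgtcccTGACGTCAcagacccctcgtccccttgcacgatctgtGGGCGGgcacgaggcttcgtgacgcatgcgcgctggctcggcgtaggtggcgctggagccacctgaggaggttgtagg
Tra2a: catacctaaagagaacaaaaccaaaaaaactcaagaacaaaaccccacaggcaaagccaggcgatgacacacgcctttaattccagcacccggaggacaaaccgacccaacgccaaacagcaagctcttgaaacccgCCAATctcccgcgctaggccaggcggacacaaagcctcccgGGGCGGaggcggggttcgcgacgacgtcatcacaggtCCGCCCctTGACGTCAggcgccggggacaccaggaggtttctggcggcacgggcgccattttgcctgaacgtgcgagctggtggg
Hnrnpd: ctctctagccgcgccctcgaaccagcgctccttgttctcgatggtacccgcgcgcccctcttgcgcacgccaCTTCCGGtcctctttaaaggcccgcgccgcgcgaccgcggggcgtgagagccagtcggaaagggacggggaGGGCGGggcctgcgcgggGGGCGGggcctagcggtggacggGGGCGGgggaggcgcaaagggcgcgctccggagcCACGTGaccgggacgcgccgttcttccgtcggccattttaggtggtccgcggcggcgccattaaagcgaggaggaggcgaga

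A match of letters is a description of the window and not evidence that a factor binds it. Of the 5 genes with an E-box, Hnrnpd and Hnrnpa3 fell, and Clk2, Hnrnph2 and Hnrnpm were not called. Among all tested genes 24.5% fell and 52.4% were not called. Calls among all tested genes with an E-box were not counted.

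Other genes of RNA splicing were read from 4 lists to place the SR and hnRNP genes. In the core spliceosome 6 of 48 genes rose and 18 fell, 24 had no call, and the median log2 fold change was -0.05. That is 12.5% higher and 37.5% lower. The shares were 23.1% and 24.5% of all tested genes, and 18.4% and 36.3% of those with at least 50 CPM. The Sm protein genes Snrpg, Snrpd2 and Snrpd3, which form the ring around spliceosomal RNAs, led by p among the decreases: Snrpd2 was at 69.1 ± 3.60 CPM in knockout and 105 ± 12.9 CPM in WT (-0.61 ± 0.09, adjusted p = 0.000573), and Snrpg and Snrpd3 fell by 0.69 and 0.37 on the log2 scale. The genes of U1-associated proteins Prpf39, Luc7l2 and Luc7l3 rose by 0.43, 0.30 and 0.26, and Luc7l3 lost its call without WT replicate 1 (adjusted p = 0.0562). Of 50 other splicing regulators 20 rose and 8 fell, 22 had no call, and the median was 0.17. Thus 40% were higher and 16% lower, set against the same 2 backgrounds. Rsrp1, an arginine and serine rich protein, was at 328 ± 12.2 CPM in knockout and 183 ± 10.7 CPM in WT (0.84 ± 0.06, adjusted p = 2.13e-05), Rbm15, an adaptor of RNA methylation, rose by 0.81, and Mbnl1, a muscleblind splicing regulator, was at 788 ± 52.2 CPM in knockout and 506 ± 28.5 CPM in WT (0.64 ± 0.07, adjusted p = 0.000142). Celf2, which regulates splicing in activated T cells, was at 123 ± 4.81 CPM in knockout and 175 ± 10.6 CPM in WT (-0.51 ± 0.06, adjusted p = 0.000234), and Ptbp3 and Rsrc1 fell by 0.31 and 0.30. Ptbp3 and Rsrc1 lost their calls without the 3 libraries with the higher B cell marker sums (adjusted p = 0.0677 and 0.153).

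Of 16 genes of nonsense-mediated decay and the exon junction complex, 6 rose (37.5%) and 2 fell (12.5%), against 23.1% and 24.5% of all tested genes, with a median of 0.12. Upf3a, a decay factor that can substitute for UPF3B, was at 49.6 ± 3.31 CPM in knockout and 25.4 ± 1.10 CPM in WT (0.96 ± 0.07, adjusted p = 2.20e-05), and Smg9, which acts in the same decay pathway, rose by 0.68. The exon junction core genes Rbm8a and Eif4a3 fell by 0.42 and 0.38. Of 15 listed genes that modify or import SR proteins and hnRNPs 14 were tested, of which 3 rose (21.4%) and 4 fell (28.6%), near the shares of all tested genes, with a median of -0.04. The decreases included all 3 catalytic subunit genes of protein phosphatase 1, which removes phosphate from SR proteins: Ppp1cb was at 189 ± 9.73 CPM in knockout and 291 ± 8.74 CPM in WT (-0.62 ± 0.06, adjusted p = 6.30e-05), and Ppp1cc and Ppp1ca both fell by 0.38. Ppp1ca lost its call without the 3 libraries with the higher B cell marker sums (adjusted p = 0.05747). The kinase genes Prpf4b, Dyrk1b and Dyrk1a rose by 0.25, 0.63 and 0.19, and each lost its call without WT replicate 1 (adjusted p = 0.0514, 0.0607 and 0.0985). Dyrk1b was near 5.18 CPM in knockout and 3.34 CPM in WT, and was at 0.34 (adjusted p = 0.266) without the 3 libraries with the higher B cell marker sums; Dyrk1b also lost its call without knockout replicate 2 or 3 (adjusted p = 0.07095 and 0.0528), and Dyrk1a without knockout replicate 1 or 3 (adjusted p = 0.0650 and 0.0585).

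**Figure D5:**
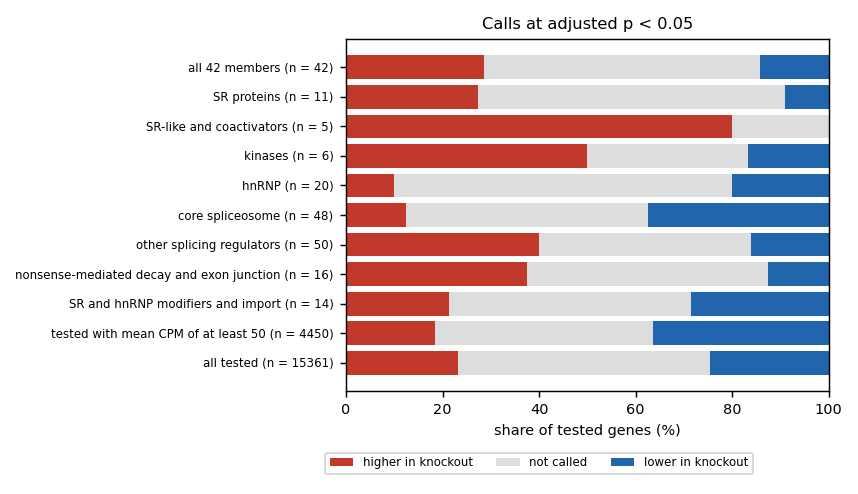
Bars give the share of tested genes (x axis, %) called higher (red), not called (grey) or called lower (blue) in knockout, for the 42 genes, their role groups, the 4 lists of other splicing genes and the background. The 42 genes were at 28.6% higher and 14.3% lower, the core spliceosome at 12.5% and 37.5%, tested genes with at least 50 CPM at 18.4% and 36.3%, and all tested genes at 23.1% and 24.5%.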

How the data were processed

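The table deposited by the authors holds expected counts per gene as whole numbers, used without rounding. Salmon, DESeq2 and DESeq appear in the submitters' processing notes, with neither version nor role, and the sources used here give no genome build or annotation. In each deposited row 3 or more libraries have 10 counts or more. Symbols came from GENCODE M21 by unversioned ID (15138 matched, 314 did not). Members and lists were chosen with earlier results of these data known.

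Counts were analysed with edgeR 4.0.16 in R 4.3.3: filterByExpr (91 genes removed), TMM scaling, a robust quasi-likelihood fit over all genes with genotype as the only term, and Benjamini-Hochberg adjustment with a threshold of 0.05. SE and 95% intervals derive from the F statistic. CPM are TMM-scaled except marker sums and count shares, which use library totals. The biological coefficient of variation was 13.8%, and replicates differed by far more than sampling noise (chi-square per degree of freedom at least 24.05). Values in every library are given for the called genes with the 3 largest increases and decreases of each role group and the 3 most abundant uncalled ones, with Hnrnpul1, Tra2b and the values of further uncalled genes added after they were seen; of the other lists, up to 3 called genes in each direction with the smallest p are named, except 1 that is not reported here. The alternatives comprised DESeq2 1.42.0, limma-voom (limma 3.58.1), scaling by library totals, by RLE or by upper quartile, a fit without robust estimation, no low-count filter, a filter of 50 counts in 3 libraries, a test against 1.2-fold, a replicate block, each library left out, 3 libraries with higher B cell marker sums left out, and 27 entries raised over 5 times in knockout replicate 2 left out. Motifs were searched in RefSeq promoter windows. The motifs, transcript types, overlapping genes, gene pairs and places within groups were chosen after the values were seen. Figures used matplotlib 3.10.9.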

Additional observations from a re-analysis of the deposited data

How the results depend on the processing

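Counts of the 42 genes kept within 1.5 times of 12 higher and 6 lower in 17 of the 18 alternatives. Tested against a 1.2-fold change, 4 of the 42 were higher and 2 lower, and over all genes 2125 were higher and 1856 lower, against 3548 and 3763 without that margin. Leaving out 1 library at a time gave 9 to 15 of the 42 higher and 4 to 7 lower, and 2604 to 3333 of all genes higher and 2920 to 3643 lower. Of 756 values of single genes among the 42 under an alternative, 692 kept their side of the threshold, 39 lost a call and 25 gained one. Some values without a call changed sign, such as Hnrnpf at 0.03 in the main fit and -0.03 without knockout replicate 1, but 0 called values did. Of 414 values for 23 other splicing genes, 391 kept direction and side of the threshold and 23 lost a call. Correlations of deviations between same-numbered knockout and WT libraries were -0.0982, 0.0925 and -0.259. Those between libraries of differing number ran from -0.182 to 0.271. With 3 libraries a group, these values cannot decide whether the numbers pair the libraries. With the number as a replicate block, 13 of the 42 were higher and 5 lower, with Hnrnpul1 lost (adjusted p = 0.0502) and Hnrnpdl gained (adjusted p = 0.0213), and not every library correlated best with its own number. Upper-quartile scaling moved the median of all genes to 0.09 on the log2 scale. Depth limits Srsf12 most, at 49 to 115 counts a library.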
